A study of Mus musculus with 9 samples.

Results

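The 91 genes described here carry the symbols of the nuclear-encoded subunits of oxidative phosphorylation, out of 19938 genes tested on the arrays. A gene was a member if its symbol in the probe annotation began with Nduf, Uqcr, Atp5 or Cox followed by a digit from 4 to 8, or was Sdha, Sdhb, Sdhc, Sdhd, Cycs or Cyc1, and pseudogenes were left out. The rule reads symbols alone, and the group was picked for description with earlier results of these data known. Cox7c of complex IV and Ndufb4 of complex I are not among the members, because their probe sets carried a second gene symbol. By complex, 34 members belonged to complex I, 4 to complex II, 9 to complex III, 19 to complex IV and 17 to complex V, with cytochrome c (Cycs) as 1 further member. The remaining 7, Ndufaf1 to Ndufaf7, share the prefix but encode factors that assemble complex I and are not parts of it. The 13 subunits encoded by mitochondrial DNA had no named probe in the annotation and were not analysed here.

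Monocytes were isolated from the peripheral blood of tumor-free Balb/c mice aged 14 to 18 weeks that were wild type, lacked the chemokine CCL2 (Ccl2-/-) or lacked its receptor CCR2 (Ccr2-/-), both through targeted deletion on the Balb/c background. Magnetic beads removed cells bearing CD4, CD8, B220, Ly-6G, MHC II or CCR3, and CD11b+ cells were then collected. Each genotype was measured on 3 Affymetrix Mouse Gene 1.0 ST arrays, and each array held the RNA of 5 pooled mice. The comparisons asked how far each deletion altered the expression profile of circulating monocytes.

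Oxidative phosphorylation takes place in the inner mitochondrial membrane. Complexes I and II pass electrons from NADH and succinate to ubiquinone, complex III passes them to cytochrome c, and complex IV passes them to oxygen, while the proton gradient built by complexes I, III and IV drives ATP synthase, complex V. Inflammatory macrophages are known to lean on glycolysis and to use succinate dehydrogenase and reverse electron flow through complex I as sources of signals, so the respiratory chain is studied in myeloid cells for more than its ATP. NRF1, GABPA, YY1 and ERRα are transcription factors known to act on many of these promoters.

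Promoter sequence was read for members that fell in Ccr2-/- monocytes, to show the regulatory sequence beside the values that follow. Of the 91 members, 74 had a RefSeq promoter window in build GRCm38.p6. The 4 sequences below are the 250 bases before the start site of the complex III and complex I subunits with the lowest p-values, Uqcrfs1 and Ndufc2, and of the 2 members with the largest falls, Sdhd and Ndufa6. They lie on chromosomes 13, 7, 9 and 15, at chr13:30545317-30545566 (minus strand), chr7:97399753-97400002 (plus strand), chr9:50603850-50604099 (minus strand) and chr15:82354292-82354541 (minus strand), and each is written in the direction of transcription. Capitals mark the match to the GABPA motif CCGGAAG in Sdhd, 46 to 40 bases before the start and on the other strand, and the match to the NRF1 motif TGCGCATG in Ndufa6, 82 to 75 bases before the start and also on the other strand. The Uqcrfs1 and Ndufc2 stretches held none of the motifs searched.
Uqcrfs1: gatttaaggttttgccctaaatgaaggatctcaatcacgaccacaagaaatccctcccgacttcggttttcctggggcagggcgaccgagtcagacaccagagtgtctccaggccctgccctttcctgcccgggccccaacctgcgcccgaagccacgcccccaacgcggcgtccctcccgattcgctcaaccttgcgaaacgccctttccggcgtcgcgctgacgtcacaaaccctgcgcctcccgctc
Ndufc2: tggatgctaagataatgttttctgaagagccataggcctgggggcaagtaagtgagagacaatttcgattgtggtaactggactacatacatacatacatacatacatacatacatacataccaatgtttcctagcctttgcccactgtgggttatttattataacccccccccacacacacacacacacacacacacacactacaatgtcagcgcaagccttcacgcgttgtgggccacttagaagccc
Sdhd: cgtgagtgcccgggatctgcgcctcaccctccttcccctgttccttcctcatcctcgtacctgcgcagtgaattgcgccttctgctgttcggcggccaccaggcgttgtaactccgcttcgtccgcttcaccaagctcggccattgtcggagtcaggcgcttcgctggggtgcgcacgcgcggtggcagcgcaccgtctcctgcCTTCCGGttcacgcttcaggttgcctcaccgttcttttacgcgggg
Ndufa6: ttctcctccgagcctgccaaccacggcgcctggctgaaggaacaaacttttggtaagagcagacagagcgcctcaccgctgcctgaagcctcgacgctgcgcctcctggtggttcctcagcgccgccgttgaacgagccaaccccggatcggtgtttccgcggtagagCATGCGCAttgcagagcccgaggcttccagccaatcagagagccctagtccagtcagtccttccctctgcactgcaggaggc

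Motifs were counted in windows from 250 bases before to 50 bases after each start site, on both strands, without allowing mismatches. GABPA's CCGGAAG was present in 18 of the 79 windows of members (22.8%) and in 8.86% of all 32851 windows. NRF1's TGCGCATG was found in 9 windows of members (11.4%) against 2.12% of all windows, and YY1's AAGATGGC in 10 (12.7%) against 2.75%. The ERRα motif TCAAGGTCA was found in 2 (2.53%) against 0.423%, in Atp5g3 and in Sdhd, where it lay in the 50 bases after the start. The windows of members were also richer in G and C, with a median of 57.2% against 52.4% for all windows, and the part of base composition in the motif shares was not tested. Among the 12 windows of members that fell in Ccr2-/- monocytes, GABPA's motif occurred in 2 (Sdhb and Sdhd), and the motifs of NRF1 (Ndufa6), YY1 (Ndufa9) and ERRα (Sdhd) in 1 each. The 67 windows of the other members held these motifs in 16, 8, 9 and 1 cases. A match to a motif is a description of sequence and not a binding site.

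The arrays differed little in brightness except for 1. Median intensity over all transcript clusters was between 324.1 and 355.1 on 8 arrays and 430.8 on Ccl2-/- replicate 1. Ccr2 itself had a mean log2 intensity of 13.09 ± 0.15 (SD, n = 3) in wild type monocytes, 12.76 ± 0.17 with Ccl2 deleted and 9.44 ± 0.03 with Ccr2 deleted, as the labels require, while the Ccl2 probe set did not fall in Ccl2-/- monocytes and checks nothing. Markers of other cells moved with genotype. The summed intensity of 12 NK cell genes was 53257 to 57755 on wild type arrays, 66806 to 80872 on Ccl2-/- arrays and 90713 to 94038 on Ccr2-/- arrays, and 12 of the 12 were called higher in Ccr2-/- monocytes. The 6 measured markers of Ly-6Chi monocytes summed to 24675 to 31964, 16843 to 20796 and 6471 to 7484 in the same order, and 6 of 6 were called lower in Ccr2-/- monocytes. Ccr2, the deleted gene, is 1 of these 6. Its call in Ccr2-/- monocytes, and its part of the fall in the sum, were set by the genotype. The others are F13a1, Mgst1, Mmp8, Irf4 and Chil3. The 8 measured pan-monocyte markers, which include Csf1r and Cd68, summed to 61691 to 64721, 58227 to 63245 and 49121 to 53144, and 6 were called lower in Ccr2-/- monocytes. Markers of Ly-6Clo monocytes summed to 45814 to 52262, 52842 to 55809 and 48952 to 51175, with 2 of 8 called higher in Ccr2-/- monocytes. No T cell, B cell, neutrophil, platelet or erythroid marker was called in either knockout, and no marker of any list was at the floor. The lack of calls does not show that these cells were stable. T cell markers summed to 6536 to 6923, 3173 to 6443 and 3079 to 12073 in the same order. Erythroid markers summed to 1242 to 1750, 1289 to 2911 and 1933 to 3807, and B cell markers to 2606 to 3548, 2247 to 2413 and 2393 to 3124. The sums of neutrophil and of platelet markers overlapped between all genotypes. The part of these shifts in cell make-up in the values below was not tested, and in bulk RNA fewer cells of a type cannot be told apart from less RNA per cell.

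With nothing done between arrays, oxidative phosphorylation genes were on average a little lower in Ccr2-/- than in wild type monocytes. Ccl2-/- monocytes then overlapped with wild type. Which knockout overlapped with wild type, and the order of the knockouts, depended on the scaling. Mean log2 intensity over the 91 members was 10.60 ± 0.04 (SD, n = 3) in wild type, 10.57 ± 0.04 for Ccl2-/- and 10.51 ± 0.04 for Ccr2-/- monocytes. The wild type arrays (10.57 to 10.64) and the Ccl2-/- arrays (10.53 to 10.62) overlapped, and the highest Ccr2-/- array (10.47 to 10.55) lay just below the lowest wild type array. Quantile normalization gave means of 10.60, 10.54 and 10.54, and centring the arrays gave 10.64, 10.50 and 10.54. After quantile normalization all Ccl2-/- arrays (10.52 to 10.55) lay below the wild type arrays (10.58 to 10.62). Ccr2-/- replicate 3 (10.59) then lay within the wild type range. Complex I averaged 10.53 ± 0.04, 10.47 ± 0.01 and 10.41 ± 0.05 for the genotypes in this order, and complex III 10.89 ± 0.01, 10.84 ± 0.08 and 10.75 ± 0.03. Complex II averaged 11.01 ± 0.05, 10.88 ± 0.04 and 10.78 ± 0.09. These 3 complexes had their lowest means in Ccr2-/- monocytes. No Ccr2-/- array reached the wild type range for any of them, and no Ccl2-/- array did for complexes I and II. With arrays centred the lowest means of all 3 were in Ccl2-/- monocytes. After quantile normalization Ccr2-/- replicate 3 (10.51) lay within the wild type range of complex I (10.50 to 10.55). For complexes II and III no Ccr2-/- array did so. Complex IV averaged 10.16 ± 0.07, 10.24 ± 0.17 and 10.12 ± 0.03, complex V 11.60 ± 0.05, 11.55 ± 0.05 and 11.54 ± 0.04, and the assembly factors 8.75 ± 0.07, 8.75 ± 0.07 and 8.76 ± 0.03, so that the genotypes overlapped for each of these.

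**Figure D1:**
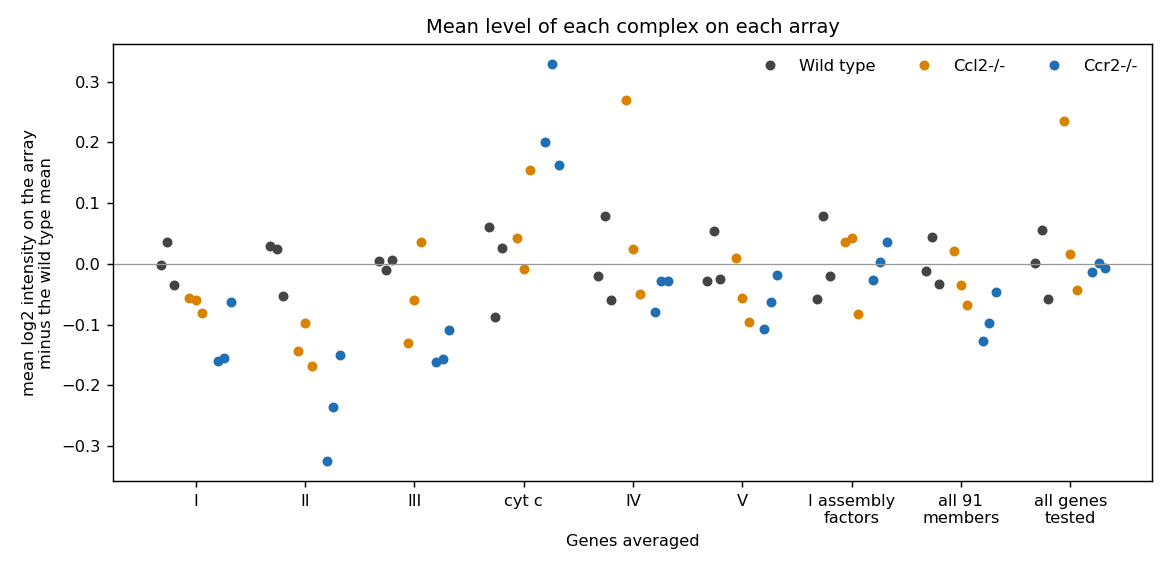
Mean log2 intensity of each complex on each array, as the difference from the wild type mean (y axis, log2 units), for the 3 arrays of wild type (grey), Ccl2-/- (orange) and Ccr2-/- (blue) monocytes. In these values, with nothing done between arrays, Ccr2-/- arrays lie below the wild type arrays for complexes I, II and III. For cytochrome c they lie above them. The highest Ccl2-/- point for complex IV and for all genes tested is replicate 1.

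In Ccr2-/- monocytes 13 members fell and none rose compared to wild type at an adjusted p under 0.05 (limma, Benjamini-Hochberg over all genes). They made up 14.3% of the members, while 13.3% of all genes were called in either direction, so oxidative phosphorylation genes were called about as often as genes at large. By direction, 8.38% of all genes were called lower, against 14.3% of members, and 4.91% were called higher, against 0 members with 3 at an unadjusted p under 0.05 (Ndufa5, Atp5g1 and Cycs). At an unadjusted p under 0.05 there were 25 members (27.5%, against 23.2% of all genes), of which 22 were lower (24.2%, against 13.5%). The changes were small. Called members changed by between -0.64 and -0.23 on the log2 scale, and the median change over the 91 members was -0.06, beside 0.01 for all genes tested, and -0.03 beside 0.01 after quantile normalization. The log2 change was below 0 in 61 members (67.0%) and in 47.7% of all genes, and in 58.2% and 47.6% after quantile normalization. The 3 Ccr2-/- arrays lay entirely below the wild type arrays in 27 members (29.7%), against 18.1% of all genes, and entirely above them in 6 (6.59%), against 15.7%.

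The number of calls depended on single arrays and on scaling. Leaving out Ccl2-/- replicate 2 left 7 calls, wild type replicate 1, 2 or 3 left 2, 3 or 5, and Ccr2-/- replicate 1 or 2 left 3 or 2, while the median stayed between -0.09 and -0.04. Centring the arrays left 4 calls, all lower, and after quantile normalization 8 were called, 6 lower and 2 higher (Atp5g1 and Cycs). The share of members called lower was then no longer above that of all genes, with 4.4% against 4.81% after centring and 6.59% against 6.92% after quantile normalization. It was also under that of all genes without Ccr2-/- replicate 1 or 2 or without any 1 of the wild type arrays, at 2.2% to 5.49% against 5.57% to 6.03%, and was 7.69% against 7.26% without Ccl2-/- replicate 2.

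By complex, falls were called for 6 of 34 subunits of complex I, 2 of 4 of complex II, 2 of 9 of complex III, 2 of 19 of complex IV and 1 of 17 of complex V, and for none of the 7 assembly factors or of cytochrome c. Of all genes 8.38% were called lower, and complexes IV and V were near that share. These are the calls whose number depended on single arrays and on scaling. Median log2 changes were -0.09 for complex I, -0.17 for complex II, -0.16 for complex III, -0.01 for complex IV, -0.04 for complex V and 0.02 for the assembly factors. The complex V median turned to 0.01 after quantile normalization, and the other medians kept their sign.

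**Figure D2:**
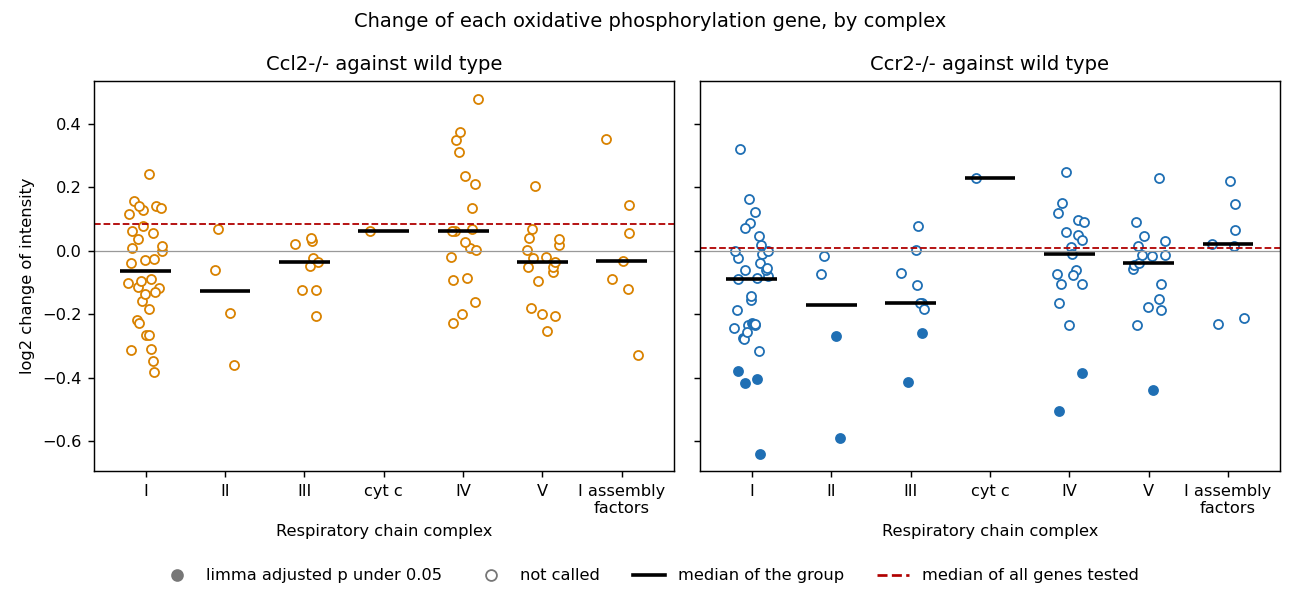
Log2 change of intensity (y axis) of each of the 91 members by complex, in Ccl2-/- (left) and Ccr2-/- (right) against wild type monocytes, with filled points for an adjusted p under 0.05, black bars for the median of a complex and a dashed line for the median of all genes tested. The 13 filled points are all on the right and below 0, and 6 of them are complex I subunits.

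Complex I oxidises NADH and is an entry point of the chain. Ndufc2, an accessory subunit of its membrane arm, had log2 intensities of 11.67, 11.68 and 11.54 on the wild type arrays, 11.39, 11.40 and 11.43 on the Ccl2-/- arrays and 11.15, 11.15 and 11.34 on the Ccr2-/- arrays. With nothing done between arrays the genotypes did not overlap, and Ccl2-/- lay between the others. In Ndufc2 the knockouts overlapped with arrays centred on their median. Its log2 change in Ccr2-/- monocytes was -0.42 ± 0.08 (SE, adjusted p = 0.0075), and the call held under all 17 alternative settings tried, with adjusted p from 0.0011 to 0.0466. Ndufa6, an accessory subunit of the LYR protein family, showed the largest fall of any member, -0.64 ± 0.17 (adjusted p = 0.0372), with 11.47, 11.54 and 11.37 on wild type arrays, 11.16, 11.08 and 10.98 on Ccl2-/- arrays and 10.53, 10.69 and 11.24 on Ccr2-/- arrays. Its Ccr2-/- arrays were spread widely, with replicate 3 above every Ccl2-/- array, and the call was lost in 7 of 17 settings (adjusted p up to 0.139).

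Ndufv1 encodes the core subunit that binds FMN and NADH. It gave 10.46, 10.40 and 10.35 for wild type, 9.95, 10.18 and 10.15 for Ccl2-/- and 9.97, 9.96 and 10.15 for Ccr2-/- monocytes. Both knockouts lay below wild type and overlapped each other, with a log2 change in Ccr2-/- of -0.38 ± 0.09 (adjusted p = 0.0228). Ndufb5, of the membrane arm, gave 11.21, 11.25 and 11.10, then 10.89, 10.89 and 10.85, then 10.66, 10.73 and 10.96 in the same order of genotypes, a change of -0.40 ± 0.09 (adjusted p = 0.0168). Again the wild type arrays stood above both knockouts. Ndufa10 fell by 0.28 (adjusted p = 0.0337) and Ndufa9, an accessory subunit near the ubiquinone site, by 0.23 (adjusted p = 0.0456), and neither had a knockout array within the wild type range. The calls of Ndufv1, Ndufb5, Ndufa10 and Ndufa9 were lost in 8, 6, 9 and 12 of 17 settings, with adjusted p up to 0.280. These and the call of Ndufa6 were lost on leaving out wild type replicate 1 or 2 or Ccr2-/- replicate 1 or 2. Not every part of complex I was lower. Ndufa5 had the largest rise in value of any member in Ccr2-/- monocytes, 0.32 ± 0.10, which did not pass the test (adjusted p = 0.0843), with 9.37, 9.37 and 9.06 in Ccr2-/- against 8.86, 8.89 and 9.08 in wild type monocytes.

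Complex II, succinate dehydrogenase, links the chain to the TCA cycle. Sdhd, a membrane anchor, had the second largest fall of the members, with 10.44, 10.30 and 10.20 for wild type, 10.01, 9.96 and 9.89 for Ccl2-/- and 9.52, 9.69 and 9.97 for Ccr2-/- monocytes. All wild type arrays were above all knockout arrays, and the knockouts overlapped. The log2 change in Ccr2-/- was -0.59 ± 0.12 (0.665-fold, adjusted p = 0.0118), and the adjusted p rose to 0.0532 without Ccr2-/- replicate 2 and 0.0553 without wild type replicate 1. Sdhb, the iron-sulfur subunit, gave 10.92, 10.94 and 10.85, then 10.63, 10.75 and 10.74, then 10.54, 10.61 and 10.75, and fell by 0.27 in Ccr2-/- monocytes (adjusted p = 0.0468). That call was lost in 10 of 17 settings, with adjusted p up to 0.257, among them leaving out any wild type array, Ccr2-/- replicate 1 or 2 or Ccl2-/- replicate 2 or 3. Wild type again stood apart from both knockouts. The other two subunits did not pass the test. Sdha, the flavoprotein, changed by -0.07 (95% interval -0.23 to 0.08) and Sdhc, the other anchor, by -0.01 (-0.16 to 0.13).

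In complex III, Uqcrfs1 encodes the Rieske iron-sulfur protein, which hands electrons to cytochrome c1. It had the smallest p-value of the members in Ccr2-/- monocytes, with 9.75, 9.78 and 9.80 for wild type, 9.59, 9.66 and 9.72 for Ccl2-/- and 9.30, 9.34 and 9.45 for Ccr2-/- monocytes. With nothing done between arrays the 3 genotypes did not overlap. With arrays centred on their median, Ccl2-/- overlapped both of the others. The log2 change was -0.41 ± 0.07 (0.751-fold, adjusted p = 0.0043), and the call was lost in 1 of 17 settings, with arrays centred on their median (adjusted p = 0.0701). Uqcrc2, a core protein, averaged 12.04 ± 0.04, 11.83 ± 0.05 and 11.78 ± 0.07 (SD, n = 3) in the same order, and fell by 0.26 (adjusted p = 0.0330). That call was lost in 9 settings, with adjusted p up to 0.209, among them leaving out any wild type array, Ccr2-/- replicate 1 or 2 or Ccl2-/- replicate 2. Here the knockouts overlapped each other and not wild type. Cyc1, the cytochrome c1 gene, changed by 0.08 (95% interval -0.07 to 0.23), and Uqcrc1, the other core protein, by -0.11 (-0.27 to 0.06). Cycs, the soluble carrier, had 12.67, 12.52 and 12.64 in wild type and 12.81, 12.94 and 12.77 in Ccr2-/- monocytes, a difference of 0.23 ± 0.08 that did not pass the test (adjusted p = 0.101) although the arrays did not overlap. Its 3 transcript clusters gave changes from 0.02 to 0.23, the lowest from a cluster with a mean log2 intensity of 7.24.

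Complex IV reduces oxygen, and several of its subunits exist as isoforms. Cox4i1, the common form of the regulatory subunit, had 11.30, 11.33 and 11.25 for wild type, 11.23, 11.10 and 11.08 for Ccl2-/- and 10.78, 10.89 and 11.07 for Ccr2-/- monocytes. With nothing done between arrays the genotypes were in descending order without overlap, by narrow gaps. With arrays centred on their median the knockouts overlapped. The change of Cox4i1 in Ccr2-/- was -0.39 ± 0.09 (adjusted p = 0.0198). Cox7a2l, a member of the Cox7a family, gave 10.17, 9.78 and 9.90, then 9.78, 9.46 and 9.92, then 9.51, 9.39 and 9.43. Its Ccr2-/- arrays were below wild type, with a change of -0.51 ± 0.14 (adjusted p = 0.0432) and -0.37 in its other cluster, while Ccl2-/- overlapped both. The calls of Cox4i1 and Cox7a2l were lost in 6 and 8 of 17 settings, with adjusted p up to 0.0810 and 0.151, and each was lost on leaving out any wild type array or Ccr2-/- replicate 1 or 2. The family member Cox7a2 changed by -0.08 (95% interval -0.22 to 0.06). Cox6a1, Cox6b1 and Cox8a, the widely expressed isoforms, changed by -0.06, -0.10 and 0.05, and none passed the test.

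Complex V makes ATP. Atp5c1 encodes the gamma subunit, the rotating central stalk, and had 12.29, 12.20 and 12.12 for wild type, 11.99, 11.96 and 11.90 for Ccl2-/- and 11.52, 11.75 and 12.03 for Ccr2-/- monocytes. Wild type was above every knockout array, and the Ccr2-/- arrays spread to both sides of the Ccl2-/- arrays. The change was -0.44 ± 0.12 (adjusted p = 0.0481), the call nearest to the threshold, and it was lost in 11 of 17 settings (adjusted p up to 0.169), among them leaving out any wild type array, Ccr2-/- replicate 1 or 2 or Ccl2-/- replicate 2 or 3. The Atp5g1, Atp5g2 and Atp5g3 genes all encode the subunit of the membrane ring and differ in the peptide that directs import. Atp5g1 had 11.78, 11.82 and 11.79 for wild type, 11.78, 11.68 and 11.74 for Ccl2-/- and 12.12, 11.98 and 11.99 for Ccr2-/- monocytes. Its Ccr2-/- arrays were above all others, and the change of 0.23 ± 0.07 against wild type just missed the threshold (adjusted p = 0.0535), passing it in 5 of 17 settings, among them quantile normalization (adjusted p = 0.0189), while centring gave an adjusted p of 0.249 and the range over all settings was 0.0072 to 0.249. Atp5g2 changed by -0.15 (95% interval -0.31 to 0.01) and Atp5g3 by -0.06 (-0.26 to 0.14). The catalytic beta subunit, Atp5b, changed by 0.03 (-0.09 to 0.16).

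**Figure D3:**
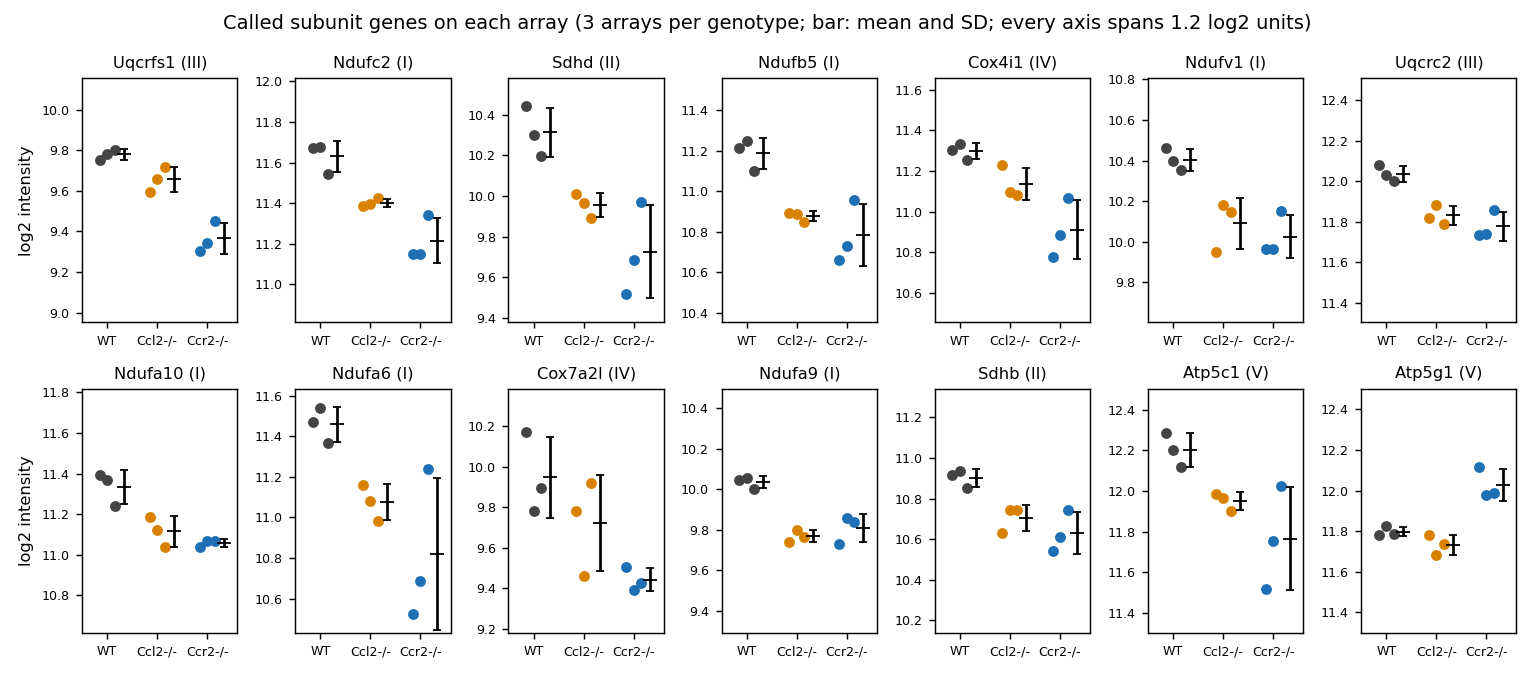
Log2 intensity (y axis, each spanning the same range) on the 3 arrays of wild type, Ccl2-/- and Ccr2-/- monocytes for the 13 members that fell in Ccr2-/- monocytes and for Atp5g1, with mean and SD beside the points and the complex in parentheses. In all but Atp5g1 the Ccr2-/- points lie below the wild type points, and in Ndufa6, Sdhd and Atp5c1 the Ccr2-/- points spread widely.

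In Ccl2-/- monocytes no member passed the test against wild type, and neither did most of the array, since 0.16% of all genes were called, 0.0853% lower and 0.0752% higher. The lowest adjusted p was 0.123 (limma), for Ndufa9. At an unadjusted p under 0.05 the count was 19, with 15 lower (16.5%, against 6.32% of all genes) and 4 higher (4.4%, against 6.78%). The 3 Ccl2-/- arrays lay below all wild type arrays in 25 members (27.5%, against 9.31% of all genes) and above them in 6 (6.59%, against 9.43%). Ndufa6, Sdhd and Ndufb6 had the lowest values, -0.38, -0.36 and -0.35, with adjusted p from 0.257 to 0.377. The median over the members was -0.03 beside 0.08 for all genes, and 50 members (54.9%) were below 0 against 31.3% of all genes. Centring the arrays made these medians -0.14 and -0.03, and the shares below 0 81.3% and 57.2%. The median of all genes rested on the bright Ccl2-/- replicate 1. Without it the medians were -0.04 for the members and -0.0003 for all genes, with 58.2% and 50.1% below 0. The members' median was 0.0016 without Ccl2-/- replicate 3 and 0.0001 without wild type replicate 2. By complex the medians were -0.06 for complex I, -0.13 for complex II, -0.04 for complex III, 0.06 for complex IV, -0.04 for complex V and -0.03 for the assembly factors. The complex IV median turned to -0.05 with arrays centred, and without Ccl2-/- replicate 1 those of complex III, complex IV and the assembly factors were 0.00, 0.00 and 0.07. The 13 members that fell in Ccr2-/- monocytes changed by between -0.38 (Ndufa6) and -0.12 (Uqcrfs1) in Ccl2-/- monocytes, with adjusted p from 0.123 to 0.483. Both comparisons used the same wild type arrays, so the values are not independent of each other.

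The complex IV isoforms known from other tissues included the members with the highest values in Ccl2-/- monocytes, and 1 array stood out for them. These 8 genes (Cox4i2 of lung, Cox6a2, Cox7a1 and Cox8b of heart and muscle, Cox6b2, Cox7b2 and Cox8c of testis, and the hypoxia-induced Ndufa4l2) were put together after their values were seen, so they are described without a test. Cox8c had 8.47, 8.67 and 8.40 for wild type, 9.59, 8.76 and 8.62 for Ccl2-/- and 8.58, 8.61 and 8.62 for Ccr2-/- monocytes. Cox7a1 had 8.64, 8.75 and 8.42, then 9.48, 8.74 and 8.71, then 8.90, 8.93 and 8.74. In both, Ccl2-/- replicate 1 was the array far above the rest, and it is also the array with the brightest median. The median change of the 8 genes in Ccl2-/- was 0.27, beside 0.08 for all genes tested. Without that array the medians were 0.10 and -0.0003. For the 8 genes it was 0.16 with arrays centred and also after quantile normalization. None of the 8 passed the test in either knockout, and their median change in Ccr2-/- monocytes was 0.08. Cox7b2 was at or under an intensity of 100 on each array, the only member to be so.

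**Figure D4:**
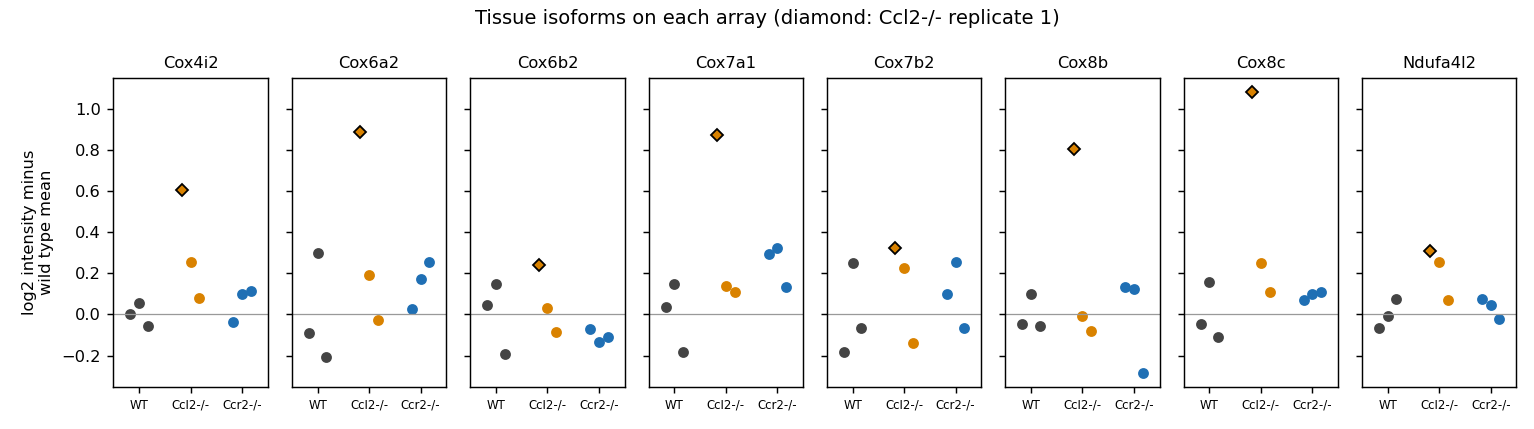
Log2 intensity minus the wild type mean (y axis) of the 8 tissue isoforms on the 3 arrays of each genotype, with a diamond for Ccl2-/- replicate 1. The diamond is the highest point in each panel and is 1.08 above the wild type mean for Cox8c.

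Compared directly, Ccr2-/- and Ccl2-/- monocytes differed in 1 member, Atp5g1, which was higher in Ccr2-/- by 0.29 ± 0.07 (adjusted p = 0.0489). This was 1.1% of members, against 0.732% of all genes called higher, 2.87% called lower and 3.6% called in either direction. The Atp5g1 call was lost in 12 of 17 settings, and leaving out any array other than Ccl2-/- replicate 1 ended it. Uqcrfs1 came next, lower in Ccr2-/- by 0.29 ± 0.07 (adjusted p = 0.0550). At an unadjusted p under 0.05 there were 4 lower members (4.4%, against 12.9% of all genes) and 2 higher (2.2%, against 5.66%), 6.59% in all against 18.6%. The arrays of the knockouts did not overlap in 12 members, with Ccr2-/- lower in 7 (7.69%, against 16% of all genes) and higher in 5 (5.49%, against 7.58%). For the 13 members that fell in Ccr2-/- monocytes the direct comparison gave adjusted p from 0.0550 to 0.758, so none of them was shown to differ between the knockouts. The median over the members was -0.06 beside -0.08 for all genes, and became 0.05 beside 0.03 with arrays centred. Ndufaf4 and Cycs had the next highest values after Atp5g1, 0.25 and 0.17 (adjusted p of 0.309 and 0.297), and the lowest were Cox8c and Ndufaf6, -0.39 and -0.33 (adjusted p of 0.397 and 0.390). In both of these Ccl2-/- replicate 1 was the highest array.

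The methods of the study set limits on size, a ratio over 1.2 with a difference over 100, in place of a test across arrays. Applied to group means of intensity, 13 members were past them downwards (14.3%, against 9.21% of all genes) and 1 upwards (1.1%, against 6.56%) in Ccr2-/- monocytes, 15.4% in all against 15.8%. In Ccl2-/- monocytes 7 were lower (7.69%, against 3.76%) and 4 higher (4.4%, against 7.84%), 12.1% in all against 11.6%. That split depended on scaling, with 21 lower and 1 higher when arrays were scaled to one median, and 6 lower and 0 higher without Ccl2-/- replicate 1. Between the knockouts 4 were lower in Ccr2-/- (4.4%, against 9.16%) and 1 higher (1.1%, against 3.47%). These counts became 0 and 3 with arrays scaled to one median. Leaving out Ccr2-/- replicate 3 raised the first count from 14 to 24, and leaving out Ccl2-/- replicate 1 or 3 changed the second from 11 to 6 or 17.

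Other genes of mitochondria and energy metabolism gave a wider view of Ccr2-/- monocytes, to be read against the 8.38% of all genes called lower and 4.91% called higher. The 40 calls over these lists, 37 of them lower, became 21 with arrays centred, 17 of them lower. They became 20 to 24 without Ccr2-/- replicate 1 or 2 or any 1 of the wild type arrays, but 61 without Ccl2-/- replicate 1. The share of all genes called lower moved too, to 4.81% with arrays centred, 5.57% to 6.03% without 1 of those 5 arrays and 10.4% without Ccl2-/- replicate 1. Carriers of the inner and outer membrane had 4 of 12 lower, among them Slc25a4, the ADP/ATP exchanger that feeds ATP synthase, by 0.76 ± 0.11 (adjusted p = 0.0031), and Slc25a13, an aspartate/glutamate carrier, by 0.69 ± 0.08 (adjusted p = 0.00099). In the TCA cycle and pyruvate dehydrogenase list 4 of 17 fell, led by Idh2 at -0.67 ± 0.09 and Fh1 at -0.57 ± 0.09 (adjusted p of 0.0022 and 0.0030). Fatty acid oxidation had 4 of 15 lower, with Echs1 at -0.82 ± 0.10, Acadm at -0.54 ± 0.07 and Hadh at -0.58 ± 0.08 (adjusted p of 0.0011, 0.0020 and 0.0021). The medians of these lists were -0.18, -0.19 and -0.12, each further below 0 than the members' median.

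Glycolysis moved in both directions, with 4 of 21 lower and 2 higher. Ldhb, a lactate dehydrogenase subunit, fell by 1.47 ± 0.14 (adjusted p = 0.00070) and Hk2, a hexokinase, by 1.17 ± 0.17 (adjusted p = 0.0026), while the glucose transporter Slc2a3 rose by 1.00 ± 0.11 (adjusted p = 0.0010). Among assembly factors 1 of 14 fell for complex I (Foxred1, -0.44 ± 0.06, adjusted p = 0.0025), 1 of 10 for complexes II and III (Sdhaf1, needed for the iron-sulfur subunit of complex II, -0.42 ± 0.07, adjusted p = 0.0049), 3 of 20 for complex IV (Surf1, Cox14 and Cox19) and 1 of 4 for ATP synthase (its inhibitor Atpif1, -0.36 ± 0.08, adjusted p = 0.0187). The complex I list includes the 7 members Ndufaf1 to Ndufaf7. Among mitochondrial antioxidant genes 2 of 7 fell, Gpx4 and Prdx3. Mitochondrial ribosomal proteins had 8 of 77 lower (10.4%, median -0.09) and cytoplasmic ribosomal proteins 5 of 60 (8.33%, median -0.12), against the 8.38% of all genes.

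Of 17 regulators of mitochondrial biogenesis, 0 were called lower and 1 rose (5.88%, against 4.91% of all genes), the PGC-1-related coactivator Pprc1, by 0.42 ± 0.09 (adjusted p = 0.0197). The factors whose motifs were counted above did not pass the test: Nrf1 changed by 0.24 (adjusted p = 0.190), Gabpa by 0.08 (adjusted p = 0.647), Yy1 by -0.05 (adjusted p = 0.769) and Esrra by 0.02 (adjusted p = 0.966). In Ccl2-/- monocytes 58 genes of these lists were at an unadjusted p under 0.05 (limma), 51 lower and 7 higher. Over all genes the shares were 6.32% lower and 6.78% higher. No gene of these lists was called at the adjusted threshold in Ccl2-/- monocytes. Hadh and Echs1 came closest there, at -0.54 and -0.60 (adjusted p of 0.0603 and 0.0637), followed by Slc25a4 at -0.65 (adjusted p = 0.0739). In the direct comparison 9 genes of the lists were called, among them Sdhaf1, Slc25a13 and Ldhb lower and Bcs1l and Atpaf1 higher in Ccr2-/- monocytes. Of all genes 2.87% were called lower there and 0.732% higher. Glycolysis had 2 lower and 1 higher of 21, and complex II and III assembly 1 lower and 1 higher of 10. The rest were 1 of 4 for ATP synthase assembly, 1 of 12 carriers, 1 of 77 mitochondrial and 1 of 60 cytoplasmic ribosomal proteins.

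**Figure D5:**
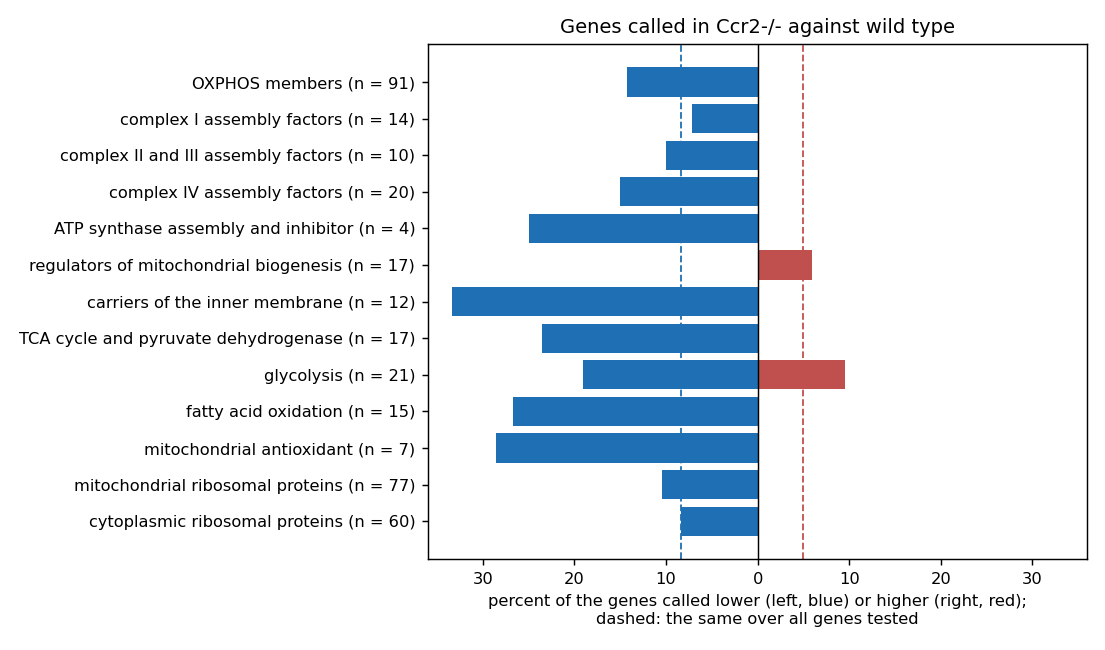
Percent of the genes of each list called lower (left, blue) or higher (right, red) in Ccr2-/- against wild type monocytes (x axis), with dashed lines for the same percentages over all genes tested. The 91 members stand at 14.3% lower and 0 higher, and 7 lists reach further to the left, which are carriers of the inner membrane, antioxidant genes, fatty acid oxidation, ATP synthase assembly, the TCA cycle, glycolysis and complex IV assembly, each from 4 to 21 genes.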

How the data were processed

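Per the methods of the study, blood of 5 mice of a genotype was pooled, and RNA of the purified monocytes was hybridized to Affymetrix Mouse Gene 1.0 ST arrays. The labels name 9 arrays, 3 per genotype. The authors computed the deposited linear intensity values with dChip, whose version, normalization and expression model are not given in the sources used here. The table held 35512 transcript clusters, of which 21789 had 1 gene symbol, 1621 several and 12102 none. Only the first kind was kept, which left out 6 clusters that pair Cox7c, Ndufb4 or Ndufs5 with another symbol. Ndufs5 had a further cluster and stayed a member, while Cox7c and Ndufb4 did not. Where a gene had more than 1 cluster, that of the highest mean log2 stood for it. This gave 19938 genes, and the 91 members came from 118 clusters. All 91 matched the RefSeq gene table by gene ID.

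Values below 1 were set to 1 before log2, and nothing was done between arrays. limma 3.58.1 (R 4.3.3) fitted the 3 genotypes to every gene over all 9 arrays. Variances were moderated by empirical Bayes, p-values were adjusted by Benjamini-Hochberg across all genes of a comparison, and the threshold was 0.05. The number of arrays limits the precision, and p-values measure the spread between pools. Members, lists and markers were chosen with earlier results of these data known, so no set test was run. Genes named were every called member, complex II, Cycs, Cyc1, the isoform families, the 3 largest rises and falls and the 3 lowest p-values of each list, and Uqcrc1 and Atp5b were added after their values were seen. Promoter windows are RefSeq's in build GRCm38.p6. Alternatives were other normalizations, a filter at 100, an offset of 50, the mean of clusters, an intensity trend, 6 arrays, a replicate block and leaving out each array.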

Additional observations from a re-analysis of the deposited data

How the results depend on the processing

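The settings compared were quantile normalization, arrays centred on their median, genes with a mean intensity over 100, an intensity trend, an offset of 50, the mean of a gene's clusters, the 6 arrays of a comparison, a replicate block, unadjusted p-values, updated symbols and structural subunits alone. Of the values of named members under the first 8 of these settings and the 9 fits that each left out an array, 1695 kept their side of the threshold, 101 were no longer past it, 13 were newly past it, 27 moved by more than the spread between arrays, and none of those past it changed sign. Most of the 1695 belonged to changes that were never called. All 101 losses fell on the 13 calls in Ccr2-/- against wild type and the 1 between the knockouts, each tried under 17 settings. In Ccl2-/- against wild type no member was called except by unadjusted p (19). In Ccr2-/- against wild type, 13 became 8 by quantile normalization, 4 with centring, 4 with the replicate block, 25 by unadjusted p and 2 to 15 on leaving out an array. The single call between the knockouts became 0 with centring, the mean of clusters, 6 arrays or the replicate block, 2 with the filter, the trend or the offset, 6 by unadjusted p and 0 to 2 on leaving out an array. The cause was not tested.

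Of the other lists, no gene was called in Ccl2-/- monocytes, but 11 were with the trend, 2 with the offset, 58 by unadjusted p and 0 to 6 on leaving out an array. The 40 called in Ccr2-/- monocytes became 21 with centring, 69 with the trend, 25 with the replicate block, 90 by unadjusted p and 20 to 61 on leaving out an array. The 9 between the knockouts became 5 by quantile normalization, 2 with centring, 15 with the trend, 0 with 6 arrays or the replicate block, 29 by unadjusted p and 0 to 10 on leaving out an array. Past the size limits were 22 members in place of 11 in Ccl2-/- monocytes with arrays scaled to one median, and 3 in place of 5 between the knockouts with scaling or quantile normalization. Leaving out an array gave 6 to 17, 12 to 24 and 3 to 13 in the 3 comparisons. With centring the members' median became -0.14 in Ccl2-/- against wild type and 0.0537 between the knockouts, and the mean level in Ccl2-/- became 10.50.

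Samples with the same replicate number had correlations of their deviations from -0.180 to 0.562, so the numbers were not taken to pair them, and the counts with the replicate block were 0 in Ccl2-/- against wild type, 4 in Ccr2-/- against wild type and 0 between the knockouts. With 3 arrays per genotype and a median standard error of 0.09 over the members, changes of the size seen in most subunits could not be told from 0.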
